A study of Mus musculus with 8 samples.

Results

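Transcripts of 10 genes that hold back or carry out the breakdown of extracellular matrix were counted in single cells of the adult mouse tibia. They are the tissue inhibitors of metalloproteinases Timp1, Timp2, Timp3 and Timp4, the membrane-anchored inhibitor Reck, and the secreted proteases Adamts1, Adamts2, Adamts4, Adamts5 and Adamts9. The genes were chosen by family and role, all 10 were in the files, and they stand among 31053 genes counted. Their levels were read in 8 groups of cells, called gates, each set by the unique molecular identifiers (UMIs) of marker genes in a cell. None of the 10 genes sets a gate.

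The mice were 8 weeks old (postnatal day 56, P56) and untreated, and carried MMP14 F/+, COL10A1cre, R26-tdT and Col1a1-2.3-GFP. Hypertrophic chondrocytes (HCs) are where Col10a1-Cre recombines, so they and their descendants carry tdTomato, and GFP is driven by a 2.3 kb Col1a1 promoter active in osteoblasts. All cells came from animals with 1 floxed Mmp14 allele, and no group without Cre or without the floxed allele is part of the comparison. The cells stem from 3 mice and were mixed before sequencing. There are 8 labelled samples in 1 group, with nothing in the counts that tells samples or mice apart, so the pool is 1 sample. No difference below has a replicate check and no p-value is given.

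Cartilage and bone are remodelled by metalloproteinases, which cut collagens and proteoglycans, and by inhibitors made in the same tissue. TIMPs bind the active site of matrix metalloproteinases (MMPs). Timp3 differs from the other TIMPs in that it binds to the matrix itself and also blocks ADAM and ADAMTS proteases, among them the aggrecanases Adamts4 and Adamts5, while Timp2 takes part in the activation of pro-MMP2 by Mmp14. Reck holds back Mmp14, Mmp2 and Mmp9 at the cell surface. Adamts1, Adamts4, Adamts5 and Adamts9 cut aggrecan and versican, and Adamts2 removes the amino-terminal propeptide of fibrillar procollagens.

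The pool held 12564 barcodes with 91463572 UMIs, and every barcode was distinct. Of these, 4472 had at least 1600 genes, the floor used here, with a median of 10451.5 UMIs. A total of 3775 were in at least 1 gate and 697 in none. The cartilage gates were Col2a1 (at least 10 Col2a1 UMIs with at most 1 Prg4 UMI, 243 cells), Col10a1/Ihh (at least 5 UMIs of both genes together, 79 cells) and Prg4/Cilp (at least 2 of both together with at least 1 Acan UMI, 197 cells). Osteoblasts were read in the Bglap gate (at least 20 UMIs, 54 cells), marrow stroma in the Cxcl12/Lepr gate (at least 20 Cxcl12 UMIs with at least 2 of Lepr and Adipoq together, 23 cells) and fibroblast-type cells in the Dcn/Col3a1 gate (at least 3 UMIs of each, 164 cells). Endothelial cells were read in the Cdh5 gate (at least 1 UMI, 89 cells) and blood in the Ptprc gate (at least 1 UMI, 3286 cells). Median depth ran from 7235 UMIs per cell in the Cdh5 gate to 25759.5 in the Bglap gate.

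The gates overlap, and this bears on every level below. Of the 79 Col10a1/Ihh cells, 43 were also in the Col2a1 gate and 35 in the Prg4/Cilp gate, and 0 were in no other gate. Of the 54 Bglap cells, 25 were also in the Col2a1 gate and 12 in the Dcn/Col3a1 gate. The Prg4/Cilp and Dcn/Col3a1 gates shared 81 cells, and the Cdh5 and Cxcl12/Lepr gates shared 4. A Ptprc UMI was found in 15.2% to 25.9% of the cells of the cartilage, Bglap and Dcn/Col3a1 gates, in 4.35% of the Cxcl12/Lepr cells and in 47 of 89 Cdh5 cells.

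Marker lists mostly went with the names of the gates. Levels are given as UMIs per 1000000 UMIs of the same cells (CPM). Hypertrophic markers summed to 7354 CPM in the Col10a1/Ihh gate against 3251 in the Col2a1 gate, osteoblast markers to 113145 in the Bglap gate and stroma markers to 5864 in the Cxcl12/Lepr gate, the highest of the 8 gates in each case. The articular markers summed to 26386 in the Prg4/Cilp gate, 19923 in the Col10a1/Ihh gate and 9371 in the Col2a1 gate, a sum that includes Acan, which is part of the Prg4/Cilp gate. The Col10a1/Ihh gate thus held articular as well as hypertrophic markers. Growth plate chondrocyte markers summed to 20862 in the Col2a1 gate, 20493 in the Col10a1/Ihh gate and 9024 in the Bglap gate. Osteoblast markers summed to 17478 in the Col2a1 gate, so the Col2a1 and Bglap gates each held markers of the other. In the Dcn/Col3a1 gate fibroblast or tendon markers summed to 2624, the highest of the 8 gates, articular markers to 13566 and osteoblast markers, which include Col1a1 and Col1a2, to 42312, so the gate is called by its 2 genes below. All 7 stroma markers were seen in the Cxcl12/Lepr gate. All 6 endothelial markers were seen there too, at 734 CPM against 2684 in the Cdh5 gate. Crtac1, an articular marker, was at 0 in the Prg4/Cilp gate. The 5 blood markers summed to 2331 CPM in the Cdh5 gate, 3346 in the Ptprc gate and 84.6 to 415 in the other gates. Neutrophil markers, all 6 of them seen in every gate, summed to 2281 to 12342 in the cartilage, bone, stroma and Dcn/Col3a1 gates and to 35633 in the Cdh5 gate, while the median cell of the 7 non-blood gates held 450.6 to 756. The 4 hemoglobin genes summed to 7117 to 41021 in the 7 non-blood gates, with 811 to 1717 in the median cell. The part of blood RNA in the levels below was not tested.

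Coordinates of the genes are those of GRCm38 in GENCODE M21. Timp1 lies at chrX:20870166-20874735, Timp2 at chr11:118301069-118355740, Timp3 at chr10:86300372-86349506 and Timp4 at chr6:115241892-115252205. Timp1, Timp3 and Timp4 lie wholly inside the synapsin genes Syn1, Syn3 and Syn2, on the opposite strand. No Timp1 exon overlaps an exon of its host, against 1 of 11 Timp3 exons and 1 of 7 Timp4 exons. Whether strand was used in counting is not stated in the labels or methods, so reads from these 2 overlaps cannot be assigned with certainty. Syn3, which acts at synapses, held 148 UMIs over the 8 gates, with 31.2 CPM in the Prg4/Cilp gate and 30.9 in the Col10a1/Ihh gate, the same 2 gates that lead for Timp3. Reck lies at chr4:43875530-43944806, Adamts9 at chr6:92772699-92943492, Adamts4 at chr1:171250421-171260637 and Adamts2 at chr11:50602084-50807573. Adamts1 (chr16:85793827-85803113) and Adamts5 (chr16:85856173-85901828) are neighbours on the same strand, 53059 bases apart with 1 gene between them.

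Promoters are shown for 2 inhibitors and 2 proteases, as examples of genes whose levels differ between cartilage, bone and stroma below. The sequences are from RefSeq (GRCm38.p6), 5′ to 3′ on the strand of the gene, and run up to its start, with bases inside an annotated exon left out. Capitals mark, on either strand, the letters TATAAA of a TATA box, the letters CCAAT of a CCAAT box or the letters GGGCGG of a GC box, and Timp3 has none of these in the stretch shown.
Timp1 chrX:20869916-20870165: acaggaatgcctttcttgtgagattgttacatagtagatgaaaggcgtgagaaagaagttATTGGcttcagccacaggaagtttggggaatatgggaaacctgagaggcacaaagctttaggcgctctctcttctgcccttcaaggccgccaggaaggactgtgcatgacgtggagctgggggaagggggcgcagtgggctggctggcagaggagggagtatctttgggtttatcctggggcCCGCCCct
Timp3 chr10:86300162-86300371: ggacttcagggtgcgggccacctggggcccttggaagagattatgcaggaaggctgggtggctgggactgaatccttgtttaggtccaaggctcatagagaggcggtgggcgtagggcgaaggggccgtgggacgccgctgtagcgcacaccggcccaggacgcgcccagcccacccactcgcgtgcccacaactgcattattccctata
Adamts1 chr16:85803114-85803363: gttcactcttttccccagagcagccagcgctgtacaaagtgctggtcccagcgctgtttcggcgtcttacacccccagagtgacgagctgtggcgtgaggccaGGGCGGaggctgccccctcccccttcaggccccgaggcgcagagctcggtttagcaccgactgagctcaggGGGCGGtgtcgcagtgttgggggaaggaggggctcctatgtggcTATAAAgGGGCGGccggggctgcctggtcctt
Adamts2 chr11:50601835-50602083: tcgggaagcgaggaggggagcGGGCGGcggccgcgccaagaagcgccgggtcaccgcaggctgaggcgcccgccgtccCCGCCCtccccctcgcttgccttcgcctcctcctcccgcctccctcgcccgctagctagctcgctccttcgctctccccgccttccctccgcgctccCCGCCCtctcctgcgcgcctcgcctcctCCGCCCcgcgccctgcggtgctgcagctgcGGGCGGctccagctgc

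Of the 10 genes, 8 had a promoter entry. Over the 250 bases before the start, Adamts1 was the only 1 of these 8 with TATAAA on either strand, against 12.4% of all 32851 promoters. GGGCGG or its reverse complement was found in 7 of the 8, with 5 copies in Adamts2 and 3 in Adamts1, against 32.7% of all promoters. Unlike the stretches shown, the 250 bases include annotated exon bases, 203 in Timp2 and 40 in Timp3. The 1 copy counted in Timp3 is not within the stretch shown. The AP-1 motif (TGANTCA) and the RUNX motif (TGTGGT) were found in 0 of the 8, against 6.75% and 14% of all promoters. The promoters of the 8 held 53.6% to 78.0% G and C, with a median of 52.4% over all promoters. The Adamts2 promoter stood highest among them with 34 CG dinucleotides, and that of Timp4 lowest with 2.

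All 4 TIMPs together made up 2417 CPM in the Col10a1/Ihh gate, 2290 in the Prg4/Cilp gate, 2102 in the Dcn/Col3a1 gate, 1482 in the Col2a1 gate and 1044 in the Bglap gate. They made up 655 in the Cdh5 gate, 574 in the Cxcl12/Lepr gate and 134 in the Ptprc gate. Among the 7 non-blood gates the 5 ADAMTS genes ran in nearly the other order, with 1350 CPM in the Cxcl12/Lepr gate, 536 in the Cdh5 gate, 408 in the Dcn/Col3a1 gate and 379 in the Bglap gate, down to 168 in the Prg4/Cilp gate, 118 in the Col2a1 gate and 90.2 in the Col10a1/Ihh gate. The Ptprc gate was lowest of all 8 for the TIMPs and, at 14.9, for the ADAMTS genes. A UMI counts the 3′ end of 1 transcript and is not divided by transcript length. Mural-like cells, described with Timp4 below, were high in both families, with 1387 for the TIMPs (542 for Timp2 and 682 for Timp3) and 1099 for the ADAMTS genes.

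**Figure D1:**
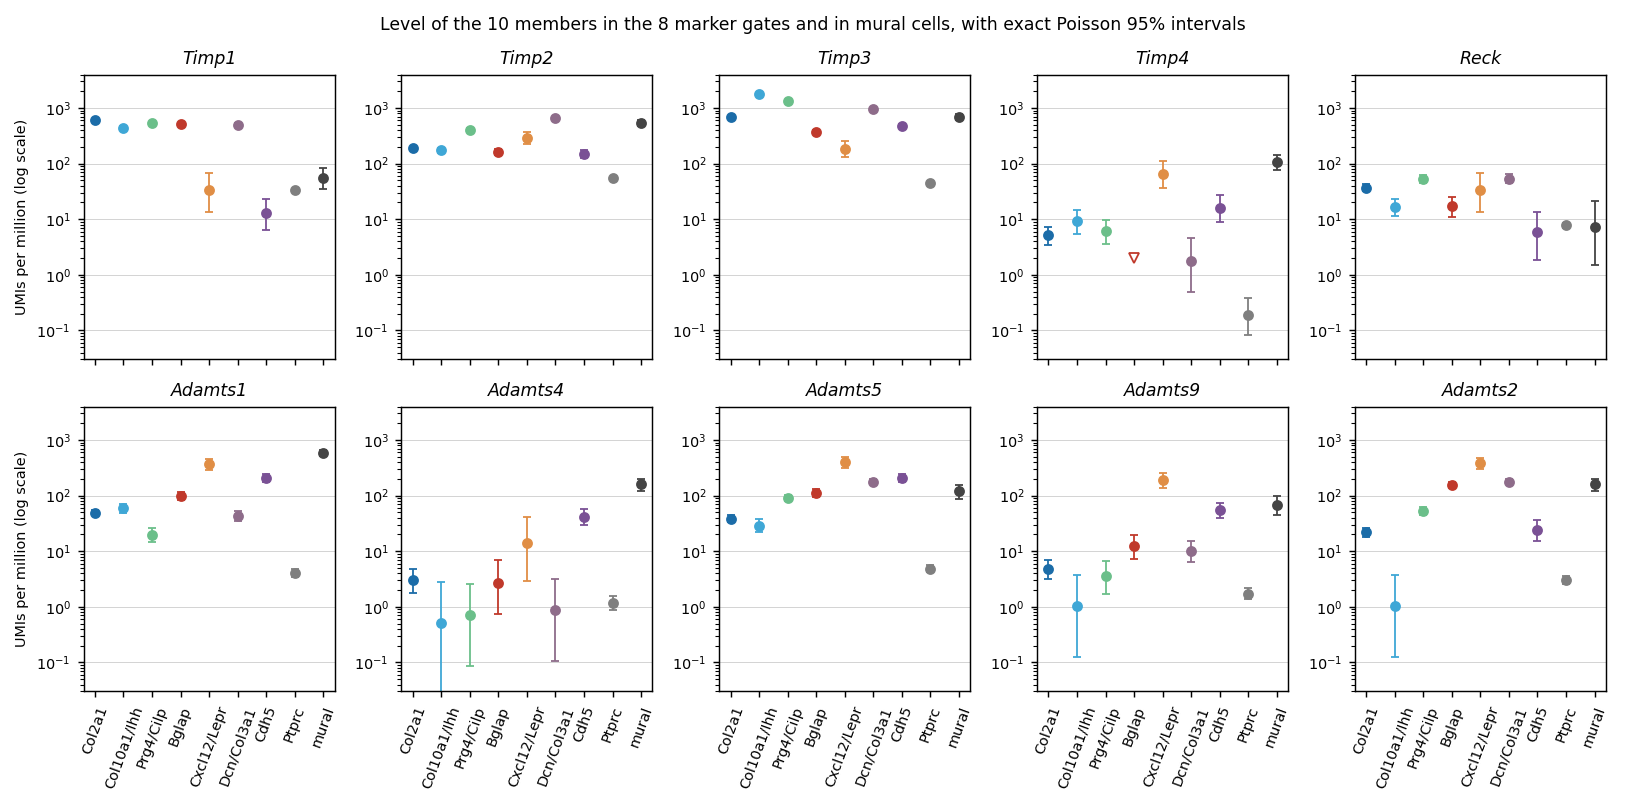
Level in UMIs per 1000000 (CPM, log scale) of each of the 10 genes in the 8 gates and in mural cells, with exact Poisson 95% intervals that cover counting error only; an open triangle marks the limit that 3 counts allow where no UMI was seen. Timp1 and Timp3 stand at 377 to 1798 in the cartilage, Bglap and Dcn/Col3a1 gates, and Adamts1, Adamts2, Adamts5 and Adamts9 stand highest of the 8 gates in the Cxcl12/Lepr gate, at 188 to 395.

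Timp1, a secreted inhibitor of MMPs, was a transcript of the cartilage, Bglap and Dcn/Col3a1 gates. Its level was 612 CPM in the Col2a1 gate (95% interval 591 to 632), 539 in the Prg4/Cilp gate (512 to 566), 506 in the Bglap gate (471 to 544), 505 in the Dcn/Col3a1 gate (476 to 535) and 435 in the Col10a1/Ihh gate (407 to 465). The Prg4/Cilp, Bglap and Dcn/Col3a1 gates had overlapping intervals, and the other neighbours in this order did not. A step of more than 10-fold followed, to 33.3 in the Ptprc gate, 32.9 in the Cxcl12/Lepr gate (7 UMIs) and 12.7 in the Cdh5 gate (11 UMIs). All intervals here and below cover counting error only and not the spread between cells or mice.

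Timp1 was unequal among cells of 1 gate. In the Col2a1 gate 56 cells held no Timp1 UMI, 58 held 1 to 4, 70 held 5 to 19 and 59 held at least 20, and the middle cell stood at 264 CPM. A single cell with 293 UMIs held 19.5% of the Timp1 UMIs of the Prg4/Cilp gate and 25.6% of those of the Dcn/Col3a1 gate. Levels in the Bglap and Dcn/Col3a1 gates rested in part on cells shared with cartilage gates. The Bglap cells that were also in the Col2a1 gate stood at 670 against 236 in the other 29, and the Dcn/Col3a1 cells in no other gate stood at 239. In blood, 1302 of the 1383 UMIs of the Ptprc gate lay in the 136 cells that were also in a non-blood gate, and the remaining 3150 cells stood at 2.09 CPM.

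Timp2, an inhibitor that also bridges Mmp14 and pro-MMP2, was led by the Dcn/Col3a1 gate and was the TIMP seen most widely. Its level was 654 in the Dcn/Col3a1 gate (621 to 689), 408 in the Prg4/Cilp gate (384 to 432) and 292 in the Cxcl12/Lepr gate (224 to 374). It was 189 in the Col2a1 gate, 175 in the Col10a1/Ihh gate, 161 in the Bglap gate and 149 in the Cdh5 gate, each overlapping its neighbour, and 56.2 in the Ptprc gate. At least 1 Timp2 UMI was found in 162 of 164 Dcn/Col3a1 cells, in 22 of 23 Cxcl12/Lepr cells and in 229 of 243 Col2a1 cells. The 55 Dcn/Col3a1 cells in no other gate stood at 1260.

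Blood also carried Timp2. The 3150 Ptprc cells outside the non-blood gates stood at 45.2, and Timp2 made up 96.1% of the TIMP UMIs of 12 osteoclast-like cells (at least 5 UMIs each of Acp5, Ctsk and Mmp9), where it stood at 344 (286 to 411) with a UMI in 12 of 12. Outside the non-blood gates, neutrophil lineage cells (at least 50 UMIs of S100a8 and S100a9 together) stood at 58.0, with a Timp2 UMI in 42.1% of 1428 cells at a median depth of 13107 UMIs. B lineage cells (at least 5 UMIs of Cd79a and Cd79b together) stood at 20.2, with a UMI in 11.3% of 1095 cells at a median depth of 8088. Thinned to 3000 UMIs per cell, the shares were 15.9% and 4.21%.

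Timp3, the matrix-bound inhibitor that also acts on aggrecanases, was highest in the Col10a1/Ihh gate, with 1798 CPM (1740 to 1858). All 79 of these cells held a Timp3 UMI, 83.5% would do so at 3000 UMIs per cell, and 43 cells held at least 20 UMIs. The Prg4/Cilp gate followed at 1338 (1296 to 1382), then the Dcn/Col3a1 gate at 941 (902 to 982), the Col2a1 gate at 676 (654 to 697), the Cdh5 gate at 477 (432 to 525), the Bglap gate at 377 (346 to 409), the Cxcl12/Lepr gate at 183 (130 to 251) and the Ptprc gate at 44.1. No neighbours in this order had overlapping intervals.

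Sharing of cells moved Timp3 strongly. The Col2a1 cells in no other gate stood at 353. The Bglap cells outside the Col2a1 gate stood at 112 against 537 in those within it, and 1 cell held 31.2% of all Timp3 UMIs of the Bglap gate. In the Cdh5 gate the 42 cells without Ptprc stood at 767 and the 47 with it at 251. The 3150 Ptprc cells outside the non-blood gates held 107 Timp3 UMIs, or 2.76 CPM. Among the 4 TIMPs, Timp3 took 74.4% of the UMIs in the Col10a1/Ihh gate and 72.8% in the Cdh5 gate, against 45.6% in the Col2a1 gate and 36.1% in the Bglap gate, where Timp1 took 48.5%.

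Timp4, an inhibitor known from heart and vessels, was scarce, with 116 UMIs in all cells at the floor, of which 52 lay in no gate. Mural-like cells (at least 3 UMIs of Rgs5, Kcnj8 and Myh11 together, no Ptprc UMI, 45 cells) stood at 107 CPM (78.1 to 144), with a UMI in 12 cells. The 65.8 CPM of the Cxcl12/Lepr gate came from 14 UMIs, 13 of them in 1 cell, and the Cdh5 gate held 14 UMIs, of which 92.9% lay in 1 cell. The Col10a1/Ihh gate stood at 9.12 with 18 UMIs, the Prg4/Cilp gate at 6.10, the Col2a1 gate at 5.12 and the Dcn/Col3a1 gate at 1.77. The Bglap gate held 0 Timp4 UMIs, which allows a level of up to 2.04 CPM. In the Ptprc gate Timp4 was seen in 0.0913% of cells, below the 0.183% of B lineage cells, and that share is read as background.

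**Figure D2:**
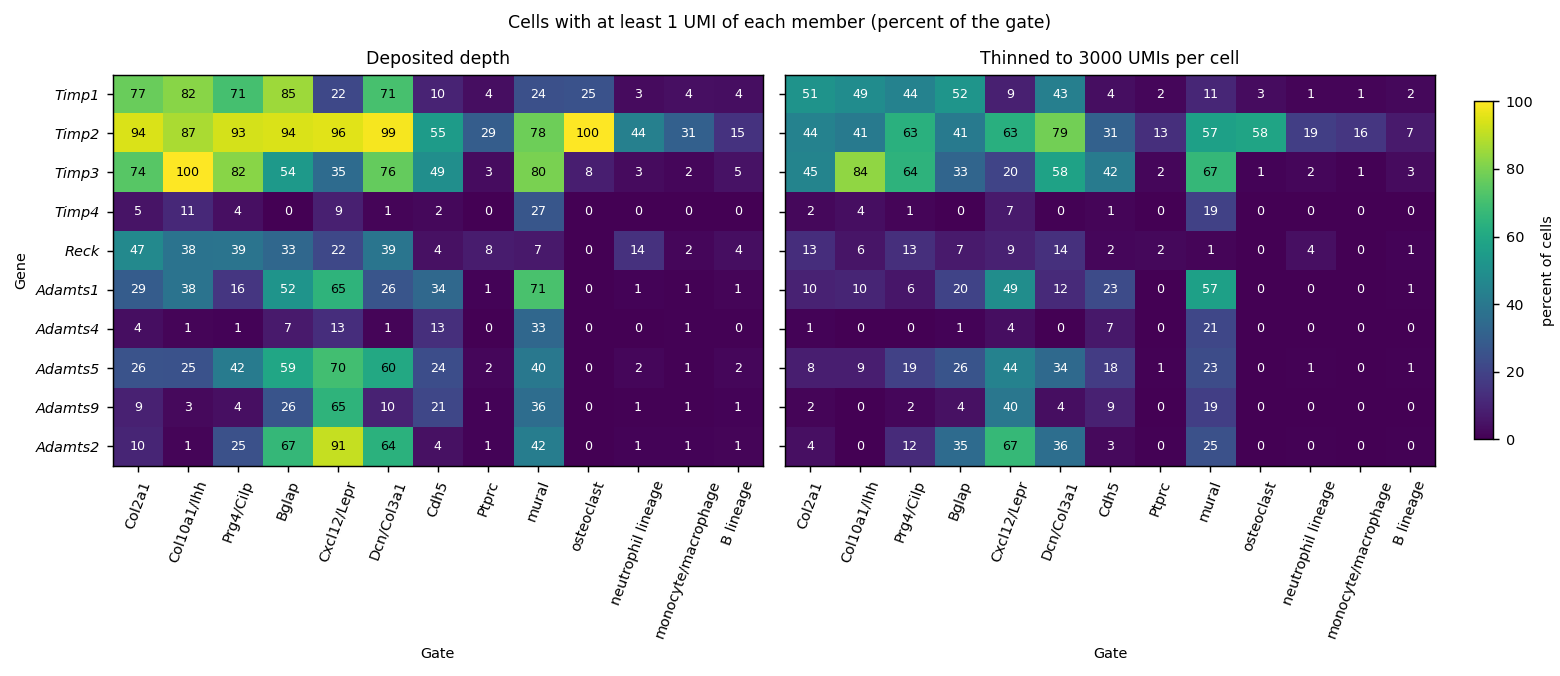
Percent of cells with at least 1 UMI of each gene, at the deposited depth and after thinning each cell to 3000 UMIs, in the 8 gates and in mural, osteoclast, neutrophil, monocyte/macrophage and B lineage gates. Timp3 reaches 100% of Col10a1/Ihh cells and Timp2 98.8% of Dcn/Col3a1 cells at the deposited depth, and 83.5% and 78.6% after thinning.

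Reck, the membrane-anchored inhibitor, was low in every gate. It stood at 53.4 CPM in the Dcn/Col3a1 gate (44.3 to 63.8), 52.0 in the Prg4/Cilp gate (43.9 to 61.2), 37.1 in the Col2a1 gate (32.2 to 42.5) and 32.9 in the Cxcl12/Lepr gate (7 UMIs). It stood at 17.0 in the Bglap gate, 16.7 in the Col10a1/Ihh gate, 7.79 in the Ptprc gate and 5.79 in the Cdh5 gate. The Dcn/Col3a1 and Prg4/Cilp gates could not be told apart, nor could the Bglap and Col10a1/Ihh gates. The cells that the former pair shares stood at 82.3, against 31.0 in the other Prg4/Cilp cells and 32.8 in the Dcn/Col3a1 cells in no other gate. A Reck UMI was found in 114 of 243 Col2a1 cells, or 13.1% at equal depth. Outside the non-blood gates, 13.9% of neutrophil lineage cells held a Reck UMI against 2.28% of B lineage cells, and 3.1% against 0.377% at equal depth.

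Timp2 and Reck differed along granulocyte markers, read in gates that overlap, were chosen after seeing the data and leave out cells of the non-blood gates. Cells with at least 20 UMIs of Mpo and Elane together, enzymes of the first granules, stood at 8.97 CPM for Timp2 (7.14 to 11.1, 418 cells). Cells with at least 5 UMIs of Fcnb, a ficolin of granulocyte precursors, stood at 25.1 (22.3 to 28.1, 671 cells). Cells with at least 10 UMIs of Ltf, a secondary granule protein, stood at 65.5 (61.4 to 69.8, 1102 cells). Cells with at least 5 Retnlg UMIs and a UMI of Cxcr2, the chemokine receptor of mature neutrophils, stood at 128 (118 to 140, 342 cells). No neighbouring intervals overlapped, and at 3000 UMIs per cell a Timp2 UMI would be found in 2.61%, 7.19%, 19.1% and 32.8% of the cells in the same order. Reck stood at 0.985, 7.86, 16.0 and 19.3 over these 4 gates, the last 2 with overlapping intervals. Among barcodes below the floor of 1600 genes, Timp2 stood at 287 in the Ltf gate (721 barcodes) and at 416 in the Retnlg and Cxcr2 gate (956 barcodes), and Reck at 27.4 and 16.3. Timp1 stood at 0.328 to 1.24 and Timp3 at 0.432 to 14.2 in the 4 gates at the floor. The highest Timp3 value, in the Retnlg and Cxcr2 gate, came from 59 UMIs, 42 of them in 1 cell.

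**Figure D3:**
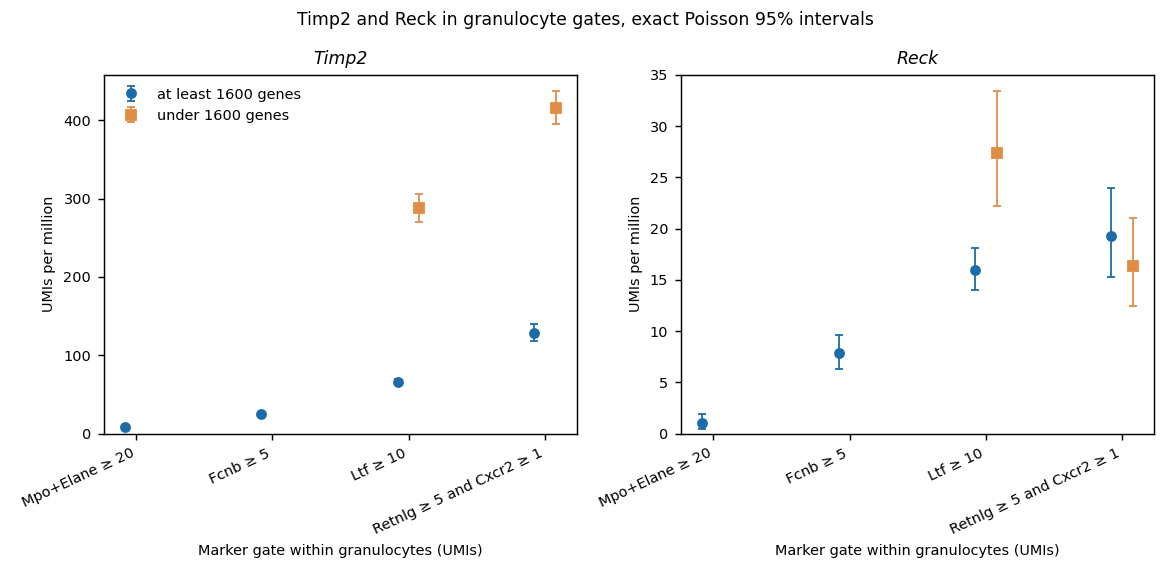
Level in CPM of Timp2 and Reck in 4 overlapping granulocyte gates, with exact Poisson 95% intervals, for barcodes with at least 1600 genes and, where a gate held at least 50, barcodes with fewer. Timp2 goes from 8.97 in the Mpo and Elane gate to 128 in the Retnlg and Cxcr2 gate at the floor, and from 287 to 416 below it.

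Shares of cells need a background, since free RNA can give a UMI to a cell that does not express the gene. B lineage cells outside the non-blood gates held Timp1 in 1.19% and Timp3 in 1.92% of cells, against 77.0% and 74.1% in the Col2a1 gate. At equal depth the shares were 0.0996% and 0.568% against 51.3% and 45.2%. The ADAMTS genes were found in 0.0913% to 0.457% of the same B lineage cells. Among the 12 osteoclast-like cells 0 held a UMI of any of the 5 ADAMTS genes, which allows a level of up to 8.46 CPM for each.

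Adamts1, a protease of aggrecan and versican, was highest among the 8 gates in stroma. The Cxcl12/Lepr gate stood at 372 (294 to 463) with a UMI in 15 of 23 cells, the Cdh5 gate at 207 (178 to 240) and the Bglap gate at 97.7 (82.4 to 115). The Col10a1/Ihh, Col2a1 and Dcn/Col3a1 gates followed at 58.8, 49.6 and 43.3 with overlapping intervals between neighbours, then the Prg4/Cilp gate at 19.7 and the Ptprc gate at 4.07. With only cells in no other gate, the order of the Col2a1 and Dcn/Col3a1 gates turned, with 32.1 and 73.3. Mural-like cells stood above all 8 gates at 594 (521 to 673), with a UMI in 32 of 45 cells. In the Cdh5 gate 1 cell held 30.2% of the Adamts1 UMIs, and the 38 Cdh5 cells in no other gate stood at 340.

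Adamts4, an aggrecanase, was found mostly in vessel cells, and 79 of its 166 UMIs at the floor lay in no gate. Mural-like cells stood at 159 (123 to 202) with a UMI in 15 of 45 cells, and the Cdh5 gate at 41.7 (29.2 to 57.7) with a UMI in 12 of 89. Of the 36 Cdh5 UMIs, 41.7% lay in 1 cell. The Cxcl12/Lepr gate held 3 UMIs, and the other gates stood at 0.507 to 3.00 CPM. The Col2a1 gate held 17 UMIs over 243 cells, and 51.0% of the 49 UMIs of the Ptprc gate lay in 1 cell.

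Adamts5, the other main aggrecanase, was found in stroma, vessels, the Dcn/Col3a1 gate and osteoblasts. The Cxcl12/Lepr gate stood at 395 (315 to 489), the Cdh5 gate at 208 (179 to 241), the Dcn/Col3a1 gate at 177 (160 to 195), the Bglap gate at 111 (94.9 to 130) and the Prg4/Cilp gate at 89.7 (78.9 to 102). The Col2a1 and Col10a1/Ihh gates stood at 38.7 and 28.9 with overlapping intervals, and the Ptprc gate at 4.88. The 3150 Ptprc cells outside the non-blood gates stood at 0.515 for Adamts5, 0.953 for Adamts1 and 0.464 for Adamts2. Single cells weigh on the first 2 values. A Cxcl12/Lepr cell that was also in the Dcn/Col3a1 gate held 24 of 84 UMIs, and a Cdh5 cell held 40 of 180 UMIs. With only cells in no other gate the order of the Cxcl12/Lepr and Dcn/Col3a1 gates turned, with 161 in 16 Cxcl12/Lepr cells and 328 in 55 Dcn/Col3a1 cells. The share of cells with Adamts5 was 60.4% in the Dcn/Col3a1 gate and 25.5% in the Col2a1 gate, or 34.3% and 8.48% at equal depth.

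Adamts9, a protease of versican and aggrecan, was concentrated in stroma. The Cxcl12/Lepr gate stood at 188 (134 to 256) with a UMI in 15 of 23 cells, mural-like cells at 68.4 (45.4 to 98.8) and the Cdh5 gate at 54.4 (40.0 to 72.4). The Bglap gate stood at 12.2 and the Dcn/Col3a1 gate at 10.2. The Col2a1, Prg4/Cilp, Ptprc and Col10a1/Ihh gates stood at 4.77, 3.59, 1.73 and 1.01, each with an interval that overlapped the next.

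Adamts2, the procollagen N-propeptidase, was found in stroma, in the Dcn/Col3a1 and Bglap gates and in mural-like cells. The Cxcl12/Lepr gate stood at 381 (303 to 473) with a UMI in 21 of 23 cells, the Dcn/Col3a1 gate at 177 (160 to 195) and the Bglap gate at 155 (136 to 177) with a UMI in 36 of 54 cells. The latter 2 could not be told apart, and mural-like cells stood between them at 159 (123 to 202). The Prg4/Cilp gate stood at 53.8, but the 81 cells shared with the Dcn/Col3a1 gate stood at 123 and the other 116 at 5.47. The Col2a1 gate stood at 21.9, or 5.17 in its cells in no other gate. In the Col10a1/Ihh gate 2 UMIs in 1 cell gave 1.01, beside a Col1a1 level of 18.7 CPM. Col1a1, which encodes a chain of type I collagen, stood at 43199 in the Bglap gate and 249 in the Cxcl12/Lepr gate.

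**Figure D4:**
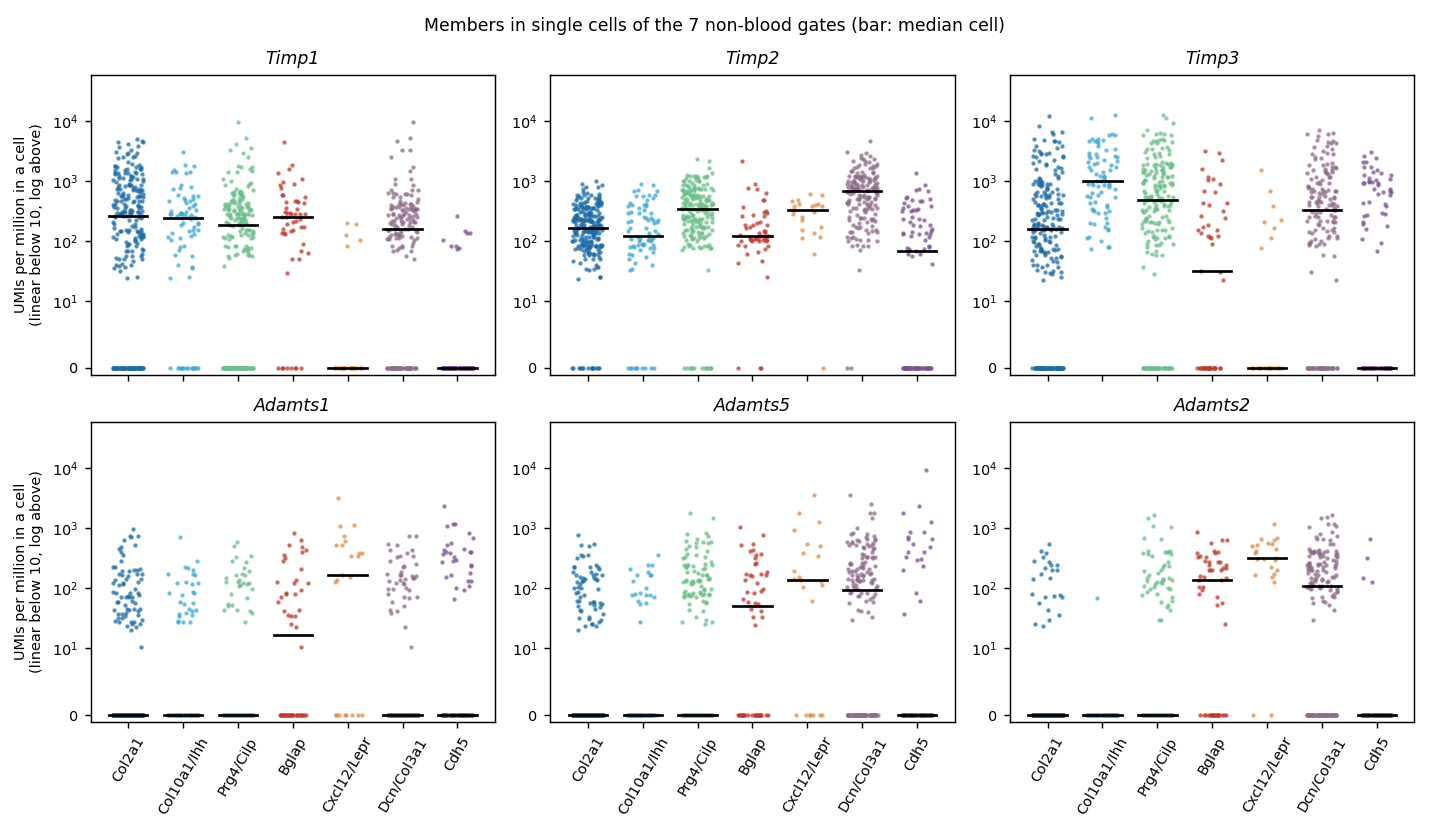
Level of 6 of the genes in each cell of the 7 non-blood gates, in CPM within that cell (linear below 10, log above), with a bar at the median cell. The median Col10a1/Ihh cell stands at 1017 for Timp3, against 160 in the Col2a1 gate, and the median Cxcl12/Lepr cell at 320 for Adamts2.

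Comparisons between pairs of gates asked which genes differed at least 2-fold, among genes with at least 50 UMIs in both gates together. Cells in both gates of a pair were counted in the first-named gate only. Timp3 was higher in the Col10a1/Ihh gate, of whose 79 cells 35 were also in the Prg4/Cilp gate, than in the Col2a1 gate, which leaves out cells with more than 1 Prg4 UMI, by 2.32 on the log2 scale (95% interval 2.23 to 2.41). Reck fell by 1.43 on the log2 scale and Adamts2 by 4.86 (interval -7.92 to -2.97). Of the 124 Adamts2 UMIs on the Col2a1 side, 100 lay in cells that were also in the Bglap gate, which left 24 UMIs for the rest. Of 7 members tested 1 was higher and 2 lower, beside 4.82% of all genes tested higher and 10.2% lower. The median log2 ratio was -0.59 over the members and -0.13 over all genes tested. The remaining 4 tested, Timp1, Timp2, Adamts1 and Adamts5, stood at -0.59, -0.29, 0.55 and -0.63.

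The Prg4/Cilp gate stood above the Col2a1 gate in Timp2, Adamts5 and Adamts2 and below it in Adamts1. The log2 ratios were 1.08 (0.96 to 1.20), 1.32 (1.04 to 1.60), 1.25 (0.89 to 1.61) and -1.38 (-1.83 to -0.96). For Adamts2 both sides rested largely on shared cells: the 116 Prg4/Cilp cells outside the Dcn/Col3a1 gate stood at 5.47 CPM, and most Adamts2 UMIs of the Col2a1 gate lay in cells also in the Bglap gate. Timp3 stood at 0.94 (0.87 to 1.00), just short of the threshold, and at 1.72 (1.58 to 1.86) with only cells in exactly 1 gate. Thus 3 of 7 members were higher and 1 lower, beside 9.76% and 7.15% of all genes tested, with a median of 0.94 over the members and 0.06 over all genes. With only cells in exactly 1 gate, Timp2 stood at 0.62 (0.40 to 0.84), while Adamts2 at 0.61 (-1.22 to 2.16, 19 UMIs) and Adamts1 at -0.54 (-1.47 to 0.28) had intervals that span 0, and 2 of 6 members, Timp3 and Adamts5, were past 2-fold.

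The Bglap gate held more Adamts1, Adamts2 and Adamts5 and less Reck than the Col2a1 gate. The log2 ratio of the Bglap to the Col2a1 gate was 4.94 (4.33 to 5.61) for Adamts2, 2.06 (1.71 to 2.40) for Adamts5 and 1.16 (0.85 to 1.48) for Adamts1, while Reck stood at -1.31 (-1.97 to -0.70). Of 7 members 3 were higher and 1 lower, beside 4.9% and 13.6% of all genes tested, with medians of -0.25 and -0.22. Timp1, Timp2 and Timp3 stood at -0.25, -0.32 and -0.90. With only cells in exactly 1 gate, Timp1 and Timp3 were past 2-fold, at -1.76 and -1.88, and Reck stood at -0.85 with an interval that spans 0 (-2.09 to 0.17). Against the Col10a1/Ihh gate, Bglap cells stood at 6.96 (5.09 to 10.01) for Adamts2, 2.27 (1.74 to 2.82) for Adamts5 and -2.39 (-2.52 to -2.26) for Timp3. These were the 3 of 7 past 2-fold, 2 higher and 1 lower, beside 6.32% and 9.66% of all genes tested, and the medians were 0.41 and -0.09. Of this pair, the Col10a1/Ihh gate thus held the higher Timp3 level and the Bglap gate the higher Adamts2 level.

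Stroma held more ADAMTS and fewer Timp1 and Timp3 transcripts than osteoblasts. The Cxcl12/Lepr gate stood above the Bglap gate by a log2 ratio of 3.94 (3.11 to 4.83) for Adamts9, 1.93 (1.51 to 2.33) for Adamts1, 1.83 (1.43 to 2.22) for Adamts5 and 1.29 (0.91 to 1.67) for Adamts2. Timp1 stood at -3.94 (-5.26 to -2.89) and Timp3 at -1.04 (-1.55 to -0.57). Of 7 members 4 were higher and 2 lower, beside 21.6% and 14% of all genes tested, with medians of 1.29 and 0.24. With only cells in exactly 1 gate, Adamts2 stood at 0.18 (-0.38 to 0.72), Adamts5 at 0.04 (-0.77 to 0.81) and Timp3 at -0.90 (-2.35 to 0.33, 34 UMIs). The intervals of all 3 span 0, and Timp1 and Adamts1 were past 2-fold among 5 members tested. Adamts9 had too few UMIs to be tested there, and stood at 2.52 (1.37 to 3.80, 34 UMIs).

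The Dcn/Col3a1 gate held more of all 3 abundant TIMPs than stroma. It stood above the Cxcl12/Lepr gate by 3.82 (2.77 to 5.14) for Timp1, 2.40 (1.92 to 2.92) for Timp3 and 1.22 (0.83 to 1.64) for Timp2 on the log2 scale. Adamts9 fell by 4.14 on the log2 scale and Adamts1 by 3.05, while Adamts5 and Adamts2 stood at -0.74 and -0.95. Of 8 members 3 were higher and 2 lower, beside 15.4% and 15.5% of all genes tested (31% in either direction), with medians of -0.08 and -0.14. With only cells in exactly 1 gate, Adamts5 turned to 1.03 (0.38 to 1.74), so its direction in this pair rested on shared cells, and Adamts2 stood at -0.20 (-0.69 to 0.31).

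The Cdh5 gate stood above the Cxcl12/Lepr gate in Timp3, by 2.78 (1.93 to 3.80). A Ptprc UMI was found in 47 of the 89 Cdh5 cells. Blood markers summed to 2331 CPM in this gate, beside 2684 for endothelial markers, so the gate is mixed. The Timp3 ratio rested in part on the 4 shared cells, which were counted in the Cdh5 gate. Without them the Cxcl12/Lepr gate held 11 Timp3 UMIs in place of 39, or 69.4 CPM in place of 183, against 477 in the Cdh5 gate. The Cdh5 gate stood below the Cxcl12/Lepr gate in Adamts2 at -4.01 (-4.80 to -3.27), Adamts9 at -1.80 (-2.49 to -1.09), Adamts1 at -1.13 (-1.53 to -0.72) and Timp2 at -1.02 (-1.51 to -0.51). Of 6 members 1 was higher and 4 lower, beside 26.2% and 9.8% of all genes tested, with medians of -1.08 and 0.31. Adamts1 and Timp2 lay close to the threshold: without Ptprc cells they stood at -0.60 and -0.73, and without called doublets at -0.99 and -0.996. With doubled thresholds they stood at -0.39 (-0.82 to 0.06) and -0.79 (-1.34 to -0.22). With only cells in exactly 1 gate they stood at -0.44 (-0.90 to 0.03) and -0.77 (-1.39 to -0.14), so both of these Adamts1 intervals span 0. Adamts5 stood at -0.54, and at 0.62 with an interval that spans 0 (-0.07 to 1.37) with only cells in exactly 1 gate. Of the 89 Cdh5 cells 6 were called doublets.

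**Figure D5:**
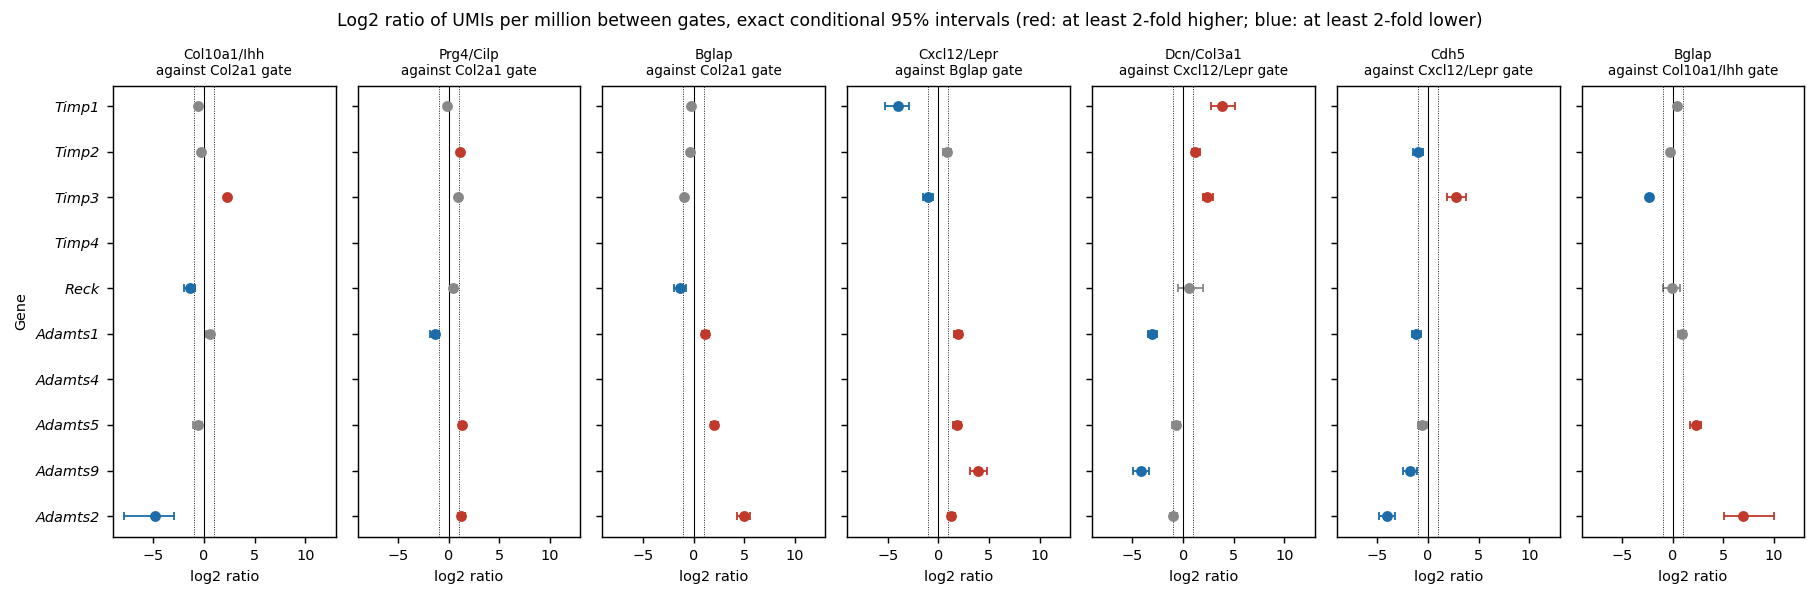
Log2 ratio of CPM for each gene with at least 50 UMIs in the 7 pairs of gates, with exact conditional 95% intervals; red points are at least 2-fold higher and blue points at least 2-fold lower in the first-named gate, and dotted lines mark 2-fold. Timp3 stands at 2.32 in the Col10a1/Ihh gate against the Col2a1 gate and at -2.39 in the Bglap gate against the Col10a1/Ihh gate, and Adamts2 at 6.96 in the latter pair.

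Cells of 1 gate also differed along markers. Of the 79 Col10a1/Ihh cells, 41 held a UMI of Ihh, the signal made by pre-hypertrophic and hypertrophic chondrocytes. These stood at 79.4 CPM for Adamts1 against 10.2 in the 38 without Ihh, a log2 ratio of 2.96 (1.79 to 4.44). They stood lower for Timp2, at 110 against 328, for Adamts5, at 19.5 against 51.0, and for Timp3, at 1595 against 2278. Timp1 stood at 428 against 452, where 1 cell without Ihh held 43.6% of the UMIs of its side, and the median cells at 275 and 192. The median depth was 33765 UMIs with Ihh and 13861 without. Split instead by the Prg4/Cilp gate, the 35 cells inside it stood at 343 for Timp2 and 9.86 for Adamts1, and the 44 outside it at 117 and 75.7. Timp3 stood at 2448 in the 35 cells and 1573 in the other 44 (0.64, 0.54 to 0.74), so it was higher in the cells that also held articular markers.

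Cells with markers of division stood lower in pooled level for Timp1, Timp2, Timp3 and Reck. In the Col2a1 gate 88 cells held a UMI of Top2a or Mki67, which mark dividing cells, and 155 did not. The median depth was 26618 UMIs with these markers and 17779 without. Timp3 stood at 426 against 863 (log2 ratio -1.02, -1.12 to -0.92), Timp1 at 458 against 727 (-0.67), Reck at 27.2 against 44.5 (-0.71) and Timp2 at 153 against 217 (-0.50). The median cells stood at 94.2 and 182 for Timp3, 248 and 282 for Timp1 and 146 and 208 for Timp2. A Timp3 UMI was found in 73.9% and 74.2% of cells, or 38.7% and 48.8% at equal depth. For Timp1 these shares were 80.7% and 74.8%, or 49.8% and 52.2% at equal depth. Among the proteases, Adamts5 stood at 32.6 against 43.2 (-0.41), with an interval that just reached 0, and Adamts1 at 55.3 against 45.4 (-0.06 to 0.63) and Adamts2 at 20.6 against 22.9 (-0.70 to 0.39) with intervals that span 0. Adamts4, Adamts9 and Timp4 had at most 29 UMIs each, at log2 ratios of -1.28, -0.83 and -0.51 with intervals that span 0. The inhibitors and proteases were not tested against each other.

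Cells with more than 14 UMIs of WPRE, a viral element in the tdTomato transcript, were taken as HC-derived. Of the 54 Bglap cells 17 were. They stood at 210 CPM for Adamts1 against 54.5 in the other 37, and at 239 for Adamts5 against 62.0, each a log2 ratio of 1.95 (1.45 to 2.45 and 1.48 to 2.42). Timp3 stood at 142 against 467 (-1.72, -2.14 to -1.33) and Timp1 at 283 against 592 (-1.06, -1.36 to -0.77). In the HC-derived cells the top cell for each gene held 51.7% of the Timp3 UMIs and 55.2% of the Timp1 UMIs, and in the others 34.8% and 21.7%. The median cells stood at 0 in the HC-derived cells and 91.3 in the others for Timp3, and at 139 and 295 for Timp1. Adamts2 stood at 183 against 145 with an interval that spans 0 (-0.08 to 0.75). In stroma the values rested on few cells. The 10 HC-derived Cxcl12/Lepr cells stood at 172 for Adamts5 against 589 in the other 13 (-1.78, -2.64 to -0.99), where 1 of the 13 held 35.8% of the UMIs and the median cells stood at 122 and 154. They stood at 50.5 against 299 for Timp3 and at 485 against 273 for Adamts1, where 1 HC-derived cell held 45.8% of the UMIs. The median cells ran the other way for Adamts1, at 134 in the HC-derived cells and 341 in the others, and were at 0 on both sides for Timp3, which had 5 and 34 UMIs. Whether the contrast differs between osteoblasts and stroma was not tested.

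Inhibitor and protease were also read in the same cell. In the Dcn/Col3a1 gate 125 of 164 cells held Timp3, 99 held Adamts5 and 73 held both (44.5%, and 19.3% at equal depth). In the Prg4/Cilp gate 162 of 197 cells held Timp3, 82 held Adamts5 and 65 held both. In the Cdh5 gate all 12 cells with Adamts4 also held Timp3, as did 29 of the 30 cells with Adamts1. Timp3 was found in 44 of the 89 Cdh5 cells, 37 of them among the 42 without Ptprc. Those 42 cells held 10 of the 12 cells with Adamts4 and 26 of the 30 with Adamts1. Whether any pair met more often than its 2 shares alone would give was not tested. All 30 Col10a1/Ihh cells with Adamts1 held Timp3, a gate in which all cells did. Timp2 and Mmp14, partners in pro-MMP2 activation, were together in 16 of 23 Cxcl12/Lepr cells, 72 of 164 Dcn/Col3a1 cells and 132 of 243 Col2a1 cells, or 32.5%, 20.2% and 6.93% at equal depth, against 0.696% in the Ptprc gate. Reck and Mmp14 were together in 65 Col2a1 cells, or 2.08% at equal depth.

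Other genes of the system were read from fixed lists. Of 19 other Adamts and Adamtsl genes, all in the files, 8 held at least 50 UMIs over the 8 gates. Adamts10 was highest in the Cxcl12/Lepr gate at 56.4 CPM, from 12 UMIs, and Adamtsl3 there at 28.2, from 6. The Dcn/Col3a1 gate held 33 Adamtsl3 UMIs, or 14.6 CPM, and the Ptprc gate 317 Adamts10 UMIs, or 7.63. Adamts18 was highest in the Prg4/Cilp gate at 29.4, and Adamts6 and Adamtsl4 in the Dcn/Col3a1 gate at 19.9 and 15.0. Adamts14 and Adamts3, procollagen N-propeptidases like Adamts2, were highest in the Bglap gate at 10.9 and in the Col10a1/Ihh gate at 8.61. Adamts7 stood at 5.79 in the Cdh5 gate, from 5 UMIs, and at 5.39 in the Ptprc gate, from 224. At most 3 of these genes could be tested in 1 pair of gates, and 2 of those 3, Adamts18 and Adamts6, were higher in the Prg4/Cilp gate than in the Col2a1 gate, beside 9.76% of all genes tested. Adamts10, the 1 gene tested between the Dcn/Col3a1 and Cxcl12/Lepr gates, was lower in the former.

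Of 17 listed proteases of the MMP and ADAM families, 16 held at least 50 UMIs. In the Bglap gate 7 of 14 tested were higher than in the Col2a1 gate and 1 lower, beside 4.9% and 13.6% of all genes tested. Against the Col10a1/Ihh gate 8 of 12 were higher and 1 lower, beside 6.32% and 9.66%, with Mmp3 lower in both pairs. Both counts of higher genes include Mmp8 and Mmp9, which were highest in the Ptprc gate. Neutrophil markers summed to 9340 CPM in the Bglap gate, 5960 in the Col2a1 gate and 5131 in the Col10a1/Ihh gate, and 25.9% of Bglap cells held a Ptprc UMI; their part in these counts was not tested. The gelatinase Mmp2 stood at 301 CPM in the Bglap gate and 264 in the Dcn/Col3a1 gate, against 81.4 in the Col2a1 gate and 14.2 in the Col10a1/Ihh gate. Mmp13 and Mmp14 stood highest in the Cxcl12/Lepr gate, at 1646 and 310, beside the high levels of Adamts1, Adamts2 and Adamts5 there. Cre can delete the floxed Mmp14 allele in HCs and their descendants, and the counts do not tell the alleles apart. Mmp3 was highest in the Prg4/Cilp gate at 80.7, Mmp9 and Mmp8 in the Ptprc gate at 203 and 140, and Adam10 in the Cdh5 gate at 119.

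Of 12 substrates 11 held at least 50 UMIs. Aggrecan (Acan) and its link protein (Hapln1) were highest in the Col10a1/Ihh gate, at 5999 and 6853 CPM, where the 5 ADAMTS genes together were lowest among the 7 non-blood gates. Versican (Vcan) was highest in the Dcn/Col3a1 gate at 260. Apart from Dcn and Col3a1, which set the gate, all substrates tested but Bgn were higher in the Dcn/Col3a1 gate than in the Cxcl12/Lepr gate, beside 15.4% of all genes tested. Of 8 clearance receptors and partners, all with at least 50 UMIs, Lrp1, which takes up ADAMTS proteases and Timp3, stood at 506 in the Dcn/Col3a1 gate, its highest. Kdr, the VEGF receptor that Timp3 blocks, stood at 379 in the Cdh5 gate.

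Genes whose levels followed each member most closely were ranked by Pearson's r of log2(CPM + 10) over 10 gates, the 8 with mural and osteoclast added, among 10670 genes. The points share 1 pool and some cells, and r is a description only. The gene most like Adamts2 was Pdgfra (0.990), most like Adamts4 was Mcam (0.990) and most like Adamts9 was Nisch (0.991), followed by Kitl (0.983). Timp1 was followed most closely by Pdgfrl (0.986), Timp3 by Lpar4 (0.960), Timp2 by Apba3 (0.934) and Timp4 by Actr10 (0.971) and Notch3 (0.961). Reck was followed by Col16a1 (0.969), Adamts1 by Tcf7l1 (0.980) and Adamts5 by Stau1 (0.970) and Nfib (0.964). Between members, r was highest for Adamts1 with Adamts9 (0.871), Adamts2 with Adamts5 (0.855), and Timp4 with Adamts1 (0.847), Adamts9 (0.842) and Adamts4 (0.836). Timp4 and Adamts4 were below the minimum of 200 UMIs set for the other genes in this ranking, and the Timp4 levels of the Cxcl12/Lepr and Cdh5 gates rest on 14 UMIs each, 13 of them in 1 cell. It was 0.757 for Reck with Timp1 and 0.720 for Timp1 with Timp3.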

How the data were processed

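Cells were released from trabecular bone of the tibia and some of its growth plate. The authors deposited raw UMI counts, unnormalized, from Cell Ranger 3.1.0 with mm10 as reference, and no annotation release is stated. Barcodes with at least 1600 genes, the floor of the study, were kept. UMIs of all cells in a gate were added up and scaled to 1000000 (CPM), with exact Poisson 95% intervals. Ratios have exact conditional intervals and shares exact Clopper-Pearson ones. Shares at equal depth are the exact expectation at 3000 UMIs per cell. A level at 0 has the limit of 3 counts. Scrublet in scanpy 1.11.5 (expected rate 6%) called 3.54% of 12564 barcodes doublets (7.42% of the 4472 kept, 0% to 6.74% in the 7 non-blood gates, 15.9% in the neutrophil and 17.3% in the B lineage gate), which were kept and left out in an alternative. With 1 pool there is no test. Python 3.11.15, numpy 2.4.6 and scipy 1.17.1 were used, and the calculations were tested on simulated data. Named genes were the 10 members, the listed genes with at least 50 UMIs by their highest gate, and the genes of highest r, of which the first 1 or 2 of 3 are named. The members, gates and lists were chosen with earlier results of these data known. Splits by a second gate or by Ptprc, the granulocyte gates and the barcodes below the floor were chosen after seeing the data.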

Additional observations from a re-analysis of the deposited data

Results flagged for a closer look

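The 8092 barcodes below 1600 genes, with a median of 2994 UMIs, entered no comparison and also held UMIs of these genes. The barcodes below the floor are named here because data outside the main comparisons held a signal above the limit of 3 counts. Timp2 had 2677 UMIs there, or 79.1 CPM (76.2 to 82.2), in 1327 barcodes (16.4%), against 5244 UMIs in the barcodes at the floor. The other counts were 246 UMIs for Timp3, 140 for Reck, 108 for Timp1, 63 for Adamts1, 62 for Adamts5, 53 for Adamts2, 25 for Adamts9 and 16 for Adamts4. Of all Timp2 UMIs 66.2% lay at or above the floor, against 82.4% to 98.0% for the other 9 genes, Timp4 with 3 UMIs below it among them.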

How the results depend on the processing

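With 1 pool, leaving out a replicate was not possible. No paired analysis was possible because all samples form 1 group and the counts carry no replicate number. Of the 30 ratios past 2-fold, all kept their direction under each alternative that gave a value. All 30 stayed past 2-fold with a floor of 1000 genes and with a limit of 20% mitochondrial UMIs, 29 with a floor of 2000 genes, 28 without called doublets, 27 with doubled thresholds, 27 with each cell weighing the same, 25 of 28 without Ptprc cells, 28 of 28 without the top cell of each gate, and 15 of 24 with cells in exactly 1 gate. That last setting left no Col10a1/Ihh cell and gave no value for its 2 pairs. Ratios within 2-fold were less stable: among those with at least 50 UMIs, 8 values over all alternatives had the other sign and 14 were past 2-fold. Of these, Adamts5 in the Dcn/Col3a1 against the Cxcl12/Lepr gate went from -0.74 to 1.03 with cells in exactly 1 gate. Levels were outside their counting interval for 51 of 70 with cells in exactly 1 gate, 36 of 80 with each cell weighing the same, 30 of 80 without the top cell of each gate, 28 of 80 without Ptprc cells, 23 of 80 with doubled thresholds and at most 5 of 80 under the other settings. With cells in exactly 1 gate, Timp3 went from 941 to 552 CPM in the Dcn/Col3a1 gate and from 377 to 95.6 in the Bglap gate, and Adamts2 from 155 to 290.4 in the Bglap gate and from 177 to 286 in the Dcn/Col3a1 gate. Counts of members past 2-fold moved from 5 to 3 for the Cdh5 against the Cxcl12/Lepr gate without called doublets, with doubled thresholds and without Ptprc cells, and to 1 with cells in exactly 1 gate. They moved from 6 to 2 for the Cxcl12/Lepr against the Bglap gate and from 4 to 2 for the Prg4/Cilp against the Col2a1 gate with cells in exactly 1 gate, and from 4 to 2 in the latter pair with each cell weighing the same. A minimum of 20 UMIs moved no count by over 1.5 times. The cause of these changes was not tested. Depth limits Timp4 and Adamts4, which were compared in 0 of the 7 pairs.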
